A study of Homo sapiens with 16 samples.

Results

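MTND1P23, MTND2P28, MTCO1P12, MTCO2P12 and MTCO3P12 are 5 nuclear copies of mitochondrial genes, chosen by symbol from the 60612 genes of the count table because their counts are high. They were selected on their levels, so those levels are given as a description with no test. All 5 lie on the plus strand of chromosome 1 within 5861 bases, and the annotation lists each as an unprocessed pseudogene. The table names 415 such copies across the genome and no gene of the mitochondrial genome itself.

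The libraries come from NCI-H1944, a human lung adenocarcinoma cell line. The study asked how gene expression after a pulse of an MPS1 inhibitor depends on STING, the adaptor of the cytosolic DNA sensing pathway, and MAVS, the adaptor of cytosolic RNA sensing. The lines were STING (titled STINGsg, genotype STING knockout), MAVS (titled MAVSsg, genotype MAVS knockout), DKO (genotype STING/MAVS knockout) and SCR (genotype WT). Each line was given the MPS1 inhibitor BAY-1217389 (MPS1i) at 100 nM for 48 h and grown for 24 h after washout, or DMSO over the same times, so all 8 groups share the washout. Each group holds 2 libraries, 16 in all. The labels do not say whether replicates were separate cultures or whether a line is 1 clone, so the tests measure the spread between these libraries. RNA was selected for poly(A) tails.

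The mitochondrial genome encodes core subunits of the respiratory complexes, and its mRNAs are among the most abundant RNAs of most cells. They are cut from long transcripts of either strand by excision of the tRNAs between them, and most carry a short poly(A) tail. ATP8 and ATP6 share 1 mRNA, and CO3 follows ATP6 with no tRNA between them. Over evolution, pieces of mitochondrial DNA have been inserted into chromosomes, and recent insertions are nearly identical to the genes they came from. A short read from a mitochondrial mRNA can therefore align to a nuclear copy, and where the mitochondrial genes are missing from a table, rows such as these are where it can be counted.

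The sequences show how closely the copies match. Over the aligned bases, identity to the mitochondrial gene was 99.1% for MTND1P23, 98.4% for MTND2P28, 98.7% for MTCO1P12, 98.2% for MTCO2P12 and 98.2% for MTCO3P12, from GENCODE release 29 transcripts on GRCh38. MTND1P23 (chr1:629062-629433) aligns over 352 bases to the end of MT-ND1, from base 605 to base 956, and differs there at 3 positions, G607A, G742A and A798G. In these, the base of the mitochondrial gene comes first, then its position counted from 1 at the first base of that gene, then the base of the copy. In the windows of 60 bases printed here, capitals mark the bases at which copy and gene differ, and all are written 5′ to 3′ on the plus strand of the copy. They are shown because they are windows in which a read can tell the copy from the reference sequence of the gene. The mitochondrial DNA of these cells was not examined and may differ from that reference.
MTND1P23, chr1:629215-629274: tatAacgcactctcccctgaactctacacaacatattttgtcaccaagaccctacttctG
MT-ND1, bases 739 to 798: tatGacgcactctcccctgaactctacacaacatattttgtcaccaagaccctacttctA
MTCO1P12, chr1:631377-631436: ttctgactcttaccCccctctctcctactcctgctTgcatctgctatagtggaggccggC
MT-CO1, bases 304 to 363: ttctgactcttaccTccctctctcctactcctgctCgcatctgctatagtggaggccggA
MTCO3P12, chr1:634658-634717: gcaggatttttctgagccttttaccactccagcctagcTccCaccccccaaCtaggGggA
MT-CO3, bases 283 to 342: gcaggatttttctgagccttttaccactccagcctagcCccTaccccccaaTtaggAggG

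Most of each copy holds fewer such positions. MTND2P28 (chr1:629640-630683) differs from MT-ND2 at 17 of 1042 aligned bases, MTCO1P12 (chr1:631074-632616) from MT-CO1 at 20 of 1542, MTCO2P12 (chr1:632757-633438) from MT-CO2 at 12 of 682, and MTCO3P12 (chr1:634376-634922) from MT-CO3 at 10 of 547. Of the 62 differences at aligned bases over the 5 copies, 59 were transitions and 3 transversions. Gaps in the alignments, which MTCO1P12 and MTCO2P12 have, are not counted among them. The longest stretch with no difference was 158 bases in MTND1P23, 266 in MTND2P28, 245 in MTCO1P12, 108 in MTCO2P12 and 124 in MTCO3P12. The start of the longest is shown because a read that falls within it is the same in copy and reference gene.
MTND2P28, first 120 of 266 identical bases from chr1:629640: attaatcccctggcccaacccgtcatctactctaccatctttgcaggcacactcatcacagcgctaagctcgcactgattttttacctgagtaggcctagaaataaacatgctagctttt
Of all windows of 100 bases, 34.4% held no difference in MTND1P23, 26.0% in MTND2P28, 27.8% in MTCO1P12, 2.40% in MTCO2P12 and 6.70% in MTCO3P12. The sources used here give neither the read length nor what was done with multiply aligned reads. The share of mitochondrial mRNA in these counts was not tested.

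Total counts ran from 19893784 to 49769938 per library. The 5 copies held 1.80 to 3.26% of a library's counts, all 415 copies held 2.27 to 4.16%, and the 5 held 79.5% of the counts of all copies. STING1 averaged 5.94 ± 0.071 CPM (read counts scaled to a common library size) in the STING line, 18.6 ± 1.9 in the MAVS line and 4.12 ± 0.12 in the DKO line, against 29.0 ± 0.17 CPM in SCR, all after MPS1i (SD, n = 2 each). After DMSO, STING1 averaged 3.74 ± 0.057 CPM in STING, 10.4 ± 0.52 in MAVS and 4.86 ± 0.046 in DKO, against 8.27 ± 0.032 in SCR. MAVS mRNA was not lower in the lines labelled MAVS knockout (151 ± 2.2 CPM in MAVS and 189 ± 3.5 in DKO, against 120 ± 1.5 in SCR, after MPS1i). After DMSO it averaged 195 ± 0.89 CPM in MAVS and 215 ± 9.8 in DKO, against 186 ± 4.3 in SCR. Of the epithelial markers, KRT8, KRT18 and CDH1 were present in every library, EPCAM lay between 2.18 and 5.69 CPM, and KRT19 and the lung lineage markers NKX2-1, NAPSA and SFTPB were at or near 0. The epithelial markers summed to 2768 to 3517 CPM after MPS1i and 2427 to 2687 CPM after DMSO. The leukocyte markers summed to 0.784 to 1.81 CPM after MPS1i and 0.205 to 0.863 CPM after DMSO, with CD3E at 0 in 13 of the 16 libraries. The 5 fibroblast markers summed to 35.2 to 48.3 CPM after MPS1i and 26.3 to 41.4 CPM after DMSO, mostly DCN and LUM, and the 4 endothelial markers to 1.89 to 3.07 and 0.973 to 2.44 CPM. Their part in the results was not tested. In RNA from whole cultures, fewer cells with a transcript and less of it per cell cannot be told apart.

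Levels are given as CPM with library sizes scaled by TMM, which corrects for a few genes taking a large part of a library. MTCO1P12 had the highest count of any gene in 9 of the 16 libraries and ranked 2 in the others. MTND2P28 ranked 3 to 5 and MTCO2P12 7 to 18, while MTND1P23 ranked 31 to 136 and MTCO3P12 36 to 161. Per kilobase of copy, the mean level over all libraries was 7281 CPM per kb for MTCO1P12, 6354 for MTND2P28, 4928 for MTCO2P12, 3388 for MTND1P23 and 2045 for MTCO3P12. MTCO1P12 held 45.2 to 51.7% of the summed counts of the 5, as group means.

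MTND1P23 is a copy of the end of the gene for ND1, a membrane subunit of complex I. In the STING line it stood at 831 and 765 CPM after MPS1i, against 1120 and 1169 CPM after DMSO. In the MAVS line it stood at 1378 and 1506 CPM after MPS1i, against 1151 and 1256 CPM after DMSO. In the DKO line the values were 1786 and 1639 CPM after MPS1i, against 1504 and 1351 CPM after DMSO. SCR had 1228 and 1496 CPM after MPS1i, against 890 and 1096 CPM after DMSO. The treated DKO libraries were the highest of all and the treated STING libraries the lowest, and neither overlapped any other group. The groups between them overlapped their neighbours, except that STING DMSO lay above SCR DMSO.

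MTND2P28 copies the gene for ND2, another membrane subunit of complex I. It stood at 4901 and 4669 CPM after MPS1i in the STING line, against 5893 and 5762 CPM after DMSO. The MAVS line had 6930 and 7613 CPM after MPS1i, against 6068 and 6535 CPM after DMSO. The DKO line had 8838 and 8887 CPM after MPS1i, against 7489 and 6974 CPM after DMSO. In SCR it stood at 6629 and 7205 CPM after MPS1i, against 5349 and 6391 CPM after DMSO. As with MTND1P23, treated DKO cells were highest and treated STING cells lowest, each clear of the next group. SCR DMSO overlapped both its neighbours in the order, MAVS DMSO and STING DMSO.

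MTCO1P12 copies the gene for CO1, the catalytic subunit of complex IV (cytochrome c oxidase). The STING line had 9693 and 9908 CPM after MPS1i, against 11217 and 10846 CPM after DMSO. The MAVS line had 11008 and 11982 CPM after MPS1i, against 10459 and 10447 CPM after DMSO. The DKO line had 15186 and 14824 CPM after MPS1i, against 12252 and 11441 CPM after DMSO. SCR had 11140 and 11870 CPM after MPS1i, against 8405 and 9078 CPM after DMSO. Treated DKO cells were again highest, but here DMSO SCR cells were lowest, with treated STING cells next above them and no overlap between these. DKO DMSO, SCR MPS1i, MAVS MPS1i and STING DMSO formed a run in which each group overlapped the next.

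MTCO2P12 copies the gene for CO2, the complex IV subunit that takes electrons from cytochrome c. It stood at 2587 and 2661 CPM after MPS1i in the STING line, against 3061 and 2886 CPM after DMSO. The MAVS line had 3418 and 3766 CPM after MPS1i, against 3366 and 3374 CPM after DMSO. The DKO line had 4360 and 4580 CPM after MPS1i, against 3767 and 3409 CPM after DMSO. SCR had 3429 and 3393 CPM after MPS1i, against 2632 and 3084 CPM after DMSO. Treated DKO cells lay above every other group. Treated STING cells had the lowest mean, but 1 SCR DMSO library, at 2632 CPM, lay between their 2 libraries.

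MTCO3P12 copies the first 69.8% of the gene for CO3, a structural subunit of complex IV. The STING line had 906 and 956 CPM after MPS1i, against 1197 and 1156 CPM after DMSO. The MAVS line had 900 and 983 CPM after MPS1i, against 1161 and 1166 CPM after DMSO. The DKO line had 1655 and 1674 CPM after MPS1i, against 1399 and 1340 CPM after DMSO. SCR had 745 and 804 CPM after MPS1i, against 885 and 968 CPM after DMSO. Its order differed from that of the other 4 copies, with both DKO groups on top, then STING DMSO and MAVS DMSO, which overlapped, and treated SCR cells at the bottom, below every other group. MAVS MPS1i, STING MPS1i and SCR DMSO overlapped in turn.

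**Figure D1:**
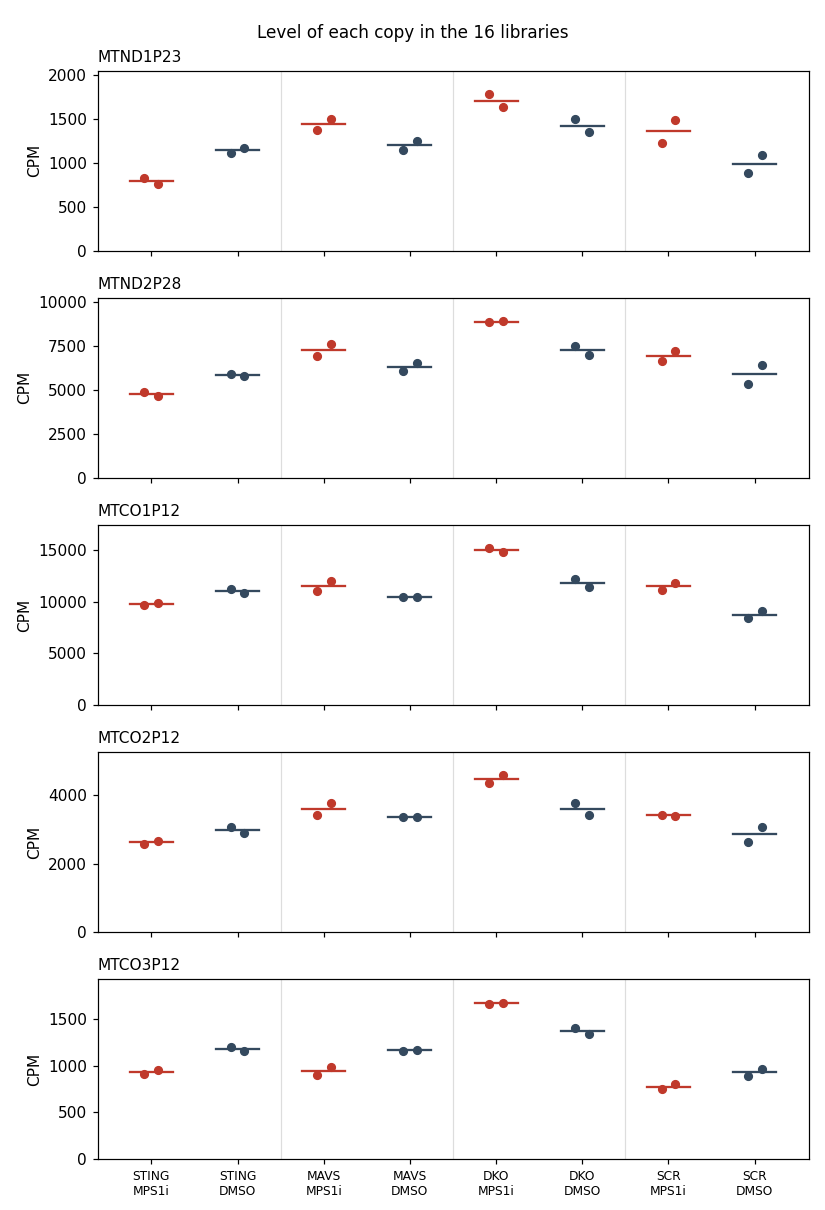
Level of each of the 5 copies (CPM with TMM scaling, linear axis from 0) in the 8 groups, MPS1i left of DMSO within each line. Points are the 2 libraries of a group and lines their mean; treated DKO libraries are highest for every copy, at 14824 to 15186 CPM for MTCO1P12, and the MPS1i mean lies below the DMSO mean for every copy in the STING line.

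The first question the design asks is what the MPS1i pulse did within each line. In the STING line all 5 copies fell, by 0.52 ± 0.13 for MTND1P23 (SE, edgeR adjusted p = 0.0135), 0.28 ± 0.08 for MTND2P28, 0.17 ± 0.05 for MTCO1P12, 0.18 ± 0.07 for MTCO2P12 and 0.34 ± 0.05 for MTCO3P12 (adjusted p = 1.39e-05) on the log2 scale. In that line 13.9% of the 17950 tested genes were called lower and 15.5% higher, with a median change of all genes of 0.00. For all 5 the MPS1i and DMSO libraries did not overlap. The same held in the other lines, also for copies that were not called there. The share of all genes without overlap was not counted, so this is a description only. MTCO2P12 was near the threshold of 0.05, at an adjusted p of 0.0493, and 2 of the 5 copies (MTND1P23 and MTCO3P12) were still called without STING DMSO replicate 1, as were 2 (MTCO1P12 and MTCO3P12) without STING MPS1i replicate 2 and 3 (MTND1P23, MTND2P28 and MTCO3P12) without STING MPS1i replicate 1. Without STING DMSO replicate 2, MTND1P23 lost its call (-0.51, adjusted p = 0.0596).

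In the MAVS line 2 copies rose and 1 fell, against 17.1% of all genes called higher and 16.3% lower. MTND2P28 rose by 0.21 ± 0.08 (adjusted p = 0.0497) and MTCO1P12 by 0.14 ± 0.05 (adjusted p = 0.0301), while MTCO3P12 fell by 0.31 ± 0.05 (adjusted p = 3.51e-05). MTND1P23 had a log2 change of 0.26 ± 0.12 (adjusted p = 0.149) and MTCO2P12 of 0.09 ± 0.07 (adjusted p = 0.316). MTND1P23 was called when the 2 MAVS groups were fitted alone (0.25, adjusted p = 0.000858) and without robust dispersion (adjusted p = 0.0372), and MTCO1P12 was not called in the fit of the 2 groups alone (0.13, adjusted p = 0.0649). Both rises were lost when single libraries were left out. Without MAVS MPS1i replicate 2 the log2 change was 0.12 for MTND2P28 (adjusted p = 0.357) and 0.06 for MTCO1P12 (adjusted p = 0.518), and neither rise was called when either MAVS DMSO library was left out. The fall of MTCO3P12 was called without each library.

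In the DKO line 4 copies rose, MTND2P28 by 0.29 ± 0.08 (adjusted p = 0.0176), MTCO1P12 by 0.34 ± 0.05 (adjusted p = 1.30e-05), MTCO2P12 by 0.32 ± 0.07 (adjusted p = 0.00293) and MTCO3P12 by 0.28 ± 0.05 (adjusted p = 0.00029). MTND1P23 had a log2 change of 0.26 ± 0.12 (adjusted p = 0.219), of about the same size with a larger error, and was called when the 2 DKO groups were fitted alone (adjusted p = 0.0171). In the DKO line, 6.53% of all genes were called higher and 8.22% lower. The copies are among the genes of highest count and most of them vary together, so these shares are given as background with no test. MTND2P28 was not called when any 1 of the 4 DKO libraries was left out, at log2 changes from 0.24 to 0.34, and MTCO2P12 was not called without DKO DMSO replicate 2 (0.24, adjusted p = 0.104) or DKO MPS1i replicate 2 (0.27, adjusted p = 0.0544).

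In SCR cells 4 copies rose and 1 fell, against 26.0% of all genes called higher and 24.0% lower. MTCO1P12 rose by 0.40 ± 0.05 (adjusted p = 1.56e-07), MTND1P23 by 0.46 ± 0.12 (adjusted p = 0.0136), MTND2P28 by 0.24 ± 0.08 (adjusted p = 0.0177) and MTCO2P12 by 0.26 ± 0.07 (adjusted p = 0.00366). MTCO3P12 fell by 0.26 ± 0.05 (adjusted p = 0.000144). Without SCR DMSO replicate 1 the calls of MTND1P23 (0.29, adjusted p = 0.0937), MTND2P28 (0.10, adjusted p = 0.241) and MTCO2P12 (0.13, adjusted p = 0.11) were lost, and those of MTND1P23 (0.30) and MTND2P28 (0.17) were lost without SCR MPS1i replicate 2. With the 2 SCR groups fitted alone, MTND1P23 (0.43, adjusted p = 0.174) and MTND2P28 (0.21, adjusted p = 0.0840) were not called. The calls of MTCO1P12 and MTCO3P12 were made without each library and in that fit.

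**Figure D2:**
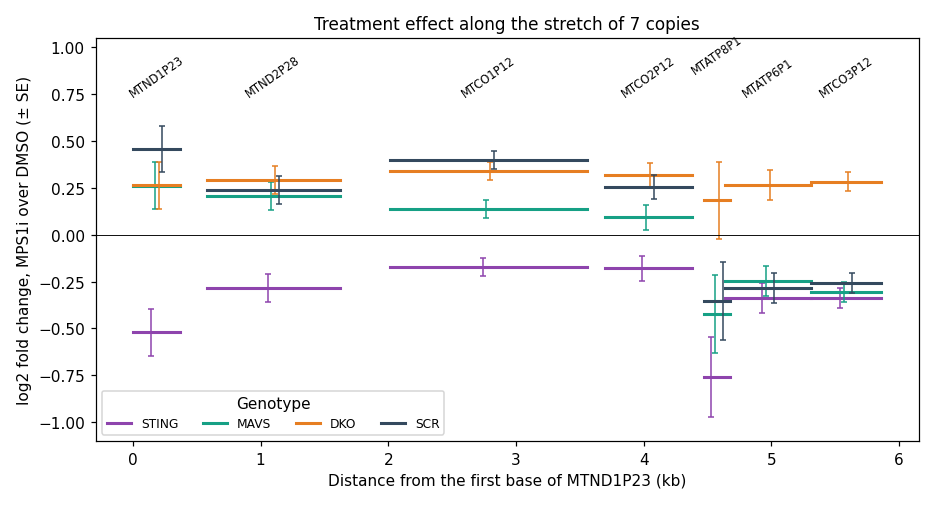
Log2 fold change, MPS1i over DMSO, with its SE, for the 5 copies and for MTATP8P1 and MTATP6P1, placed by distance from the first base of MTND1P23 (kb) and coloured by line. In SCR and MAVS cells the 4 copies on the left lie above 0 (0.46 to 0.24 in SCR) and MTCO3P12 on the right below it (-0.26 in SCR), while DKO values are all above 0 and STING values all below it.

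Whether the MPS1i response differed between a line and SCR was tested as the difference of the log2 changes. The 3 differences share the SCR libraries. For STING minus SCR, 4 copies were called and all 4 were negative, at -0.98 ± 0.18 for MTND1P23 (adjusted p = 0.00452), -0.52 ± 0.11 for MTND2P28 (adjusted p = 0.00327), -0.57 ± 0.07 for MTCO1P12 (adjusted p = 9.42e-07) and -0.44 ± 0.09 for MTCO2P12 (adjusted p = 0.00282). MTCO3P12, which had fallen in both lines, gave -0.08 ± 0.07 (adjusted p = 0.504). Of all genes, 9.55% were called with a negative difference and 9.97% with a positive one. All 4 calls were made without any 1 library.

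For MAVS minus SCR, MTCO1P12 alone was called, at -0.26 ± 0.07 (adjusted p = 0.0168), against 4.52% of genes called negative and 2.92% positive. That call was lost without SCR DMSO replicate 1 (-0.20), SCR MPS1i replicate 2 (-0.22), MAVS DMSO replicate 1 (-0.26) or MAVS MPS1i replicate 1 (-0.20), with adjusted p between 0.0549 and 0.141. Without SCR DMSO replicate 2, MTCO2P12 was called as well (-0.28, adjusted p = 0.0429). For DKO minus SCR, MTCO3P12 alone was called, at 0.54 ± 0.07 (adjusted p = 1.83e-06), against 13.5% of genes called positive and 14.5% negative. It was called without each library. The other 4 copies lay between -0.19 ± 0.18 for MTND1P23 and 0.06 ± 0.09 for MTCO2P12, none of them past the threshold.

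The lines were then set against SCR under the same treatment, again with the SCR libraries shared by the 3 comparisons. After MPS1i, 4 copies were lower in the STING line than in SCR. MTND1P23 was lower by a log2 difference of -0.77 ± 0.13 (adjusted p = 0.00125), MTND2P28 by -0.53 ± 0.08, MTCO2P12 by -0.38 ± 0.07 and MTCO1P12 by -0.23 ± 0.05 (adjusted p = 0.000484). MTCO3P12 was higher by 0.27 ± 0.05 (adjusted p = 0.000195). The background was 17.3% of genes lower and 15.8% higher. In the treated MAVS line MTCO3P12 alone differed from SCR, at 0.28 ± 0.05 (adjusted p = 0.000235), with 7.46% of genes higher and 8.47% lower. The log2 differences of the other 4 ran from -0.0013 ± 0.048 for MTCO1P12 to 0.08 ± 0.12 for MTND1P23, and their libraries overlapped.

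Treated DKO cells exceeded treated SCR cells for 4 copies, against 22.6% of genes called higher and 22.4% lower. MTCO3P12 was 2.15-fold higher, a log2 difference of 1.10 ± 0.05 (adjusted p = 1.95e-15). MTCO2P12 was higher by 0.39 ± 0.07, MTCO1P12 by 0.38 ± 0.05 and MTND2P28 by 0.36 ± 0.08. MTND1P23 had 0.33 ± 0.12 (adjusted p = 0.0583), and it was called without SCR MPS1i replicate 2 (0.49, adjusted p = 0.0175). All STING and DKO calls after MPS1i were made without any 1 library.

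After DMSO, all 5 copies were higher in DKO than in SCR, against 15.8% of genes higher and 15.3% lower. MTCO3P12 was higher by 0.56 ± 0.05 (adjusted p = 3.20e-09), MTND1P23 by 0.52 ± 0.12, MTCO1P12 by 0.44 ± 0.05, MTCO2P12 by 0.33 ± 0.07 and MTND2P28 by 0.30 ± 0.08. Without DKO DMSO replicate 1, 2 of the 5 (MTCO1P12 and MTCO3P12) were called, and 3 (with MTCO2P12) without SCR DMSO replicate 1. In the STING line MTCO1P12 was higher than in SCR by 0.34 ± 0.05 (adjusted p = 3.26e-05) and MTCO3P12 by 0.35 ± 0.05 (adjusted p = 4.57e-05), with 4.70% of genes higher and 5.47% lower. MTND2P28 stood at -0.01 ± 0.08 and overlapped SCR. In the MAVS line MTCO1P12 was higher by 0.26 ± 0.05, MTCO3P12 by 0.33 ± 0.05 (adjusted p = 0.000174) and MTCO2P12 by 0.24 ± 0.07 (adjusted p = 0.0400), with 3.98% of genes higher and 2.57% lower. The MTCO2P12 call was lost without SCR DMSO replicate 1 (0.13, adjusted p = 0.286) or either MAVS DMSO library (0.24 each).

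**Figure D3:**
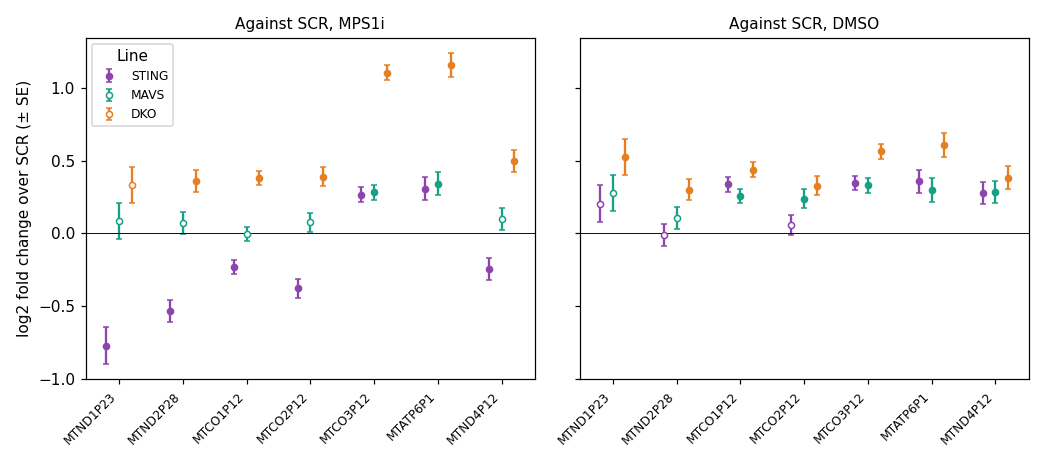
Log2 fold change of each line over SCR with its SE, after MPS1i (left) and after DMSO (right), for the 5 copies, MTATP6P1 and MTND4P12. Filled points had an adjusted p under 0.05 and open points did not (the legend shows each line by its MTND1P23 point, left); the largest values are DKO MTCO3P12 (1.10) and MTATP6P1 (1.16) after MPS1i, and STING points lie below 0 after MPS1i for MTND1P23, MTND2P28, MTCO1P12, MTCO2P12 and MTND4P12.

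MTCO3P12 followed its neighbour on the stretch, MTATP6P1, more closely than it followed the other 4 copies. MTATP6P1 copies the gene for ATP6, a membrane subunit of complex V (ATP synthase), is 98.5% identical to it, and shares 1 base with the start of MTCO3P12. The likeness of a pair was measured as the root mean square difference of their log2 CPM over the 16 libraries, each centred on its own mean. It was 0.056 for MTCO3P12 and MTATP6P1, against 0.25 to 0.33 for MTCO3P12 and each of the other 4, which differed among themselves by 0.07 to 0.19. These libraries are shared by all pairs, and no test was made.

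The same is seen in ratios within a library, which do not depend on scaling. In SCR cells MTCO3P12 had 6.68 and 6.77 counts per 100 MTCO1P12 counts after MPS1i, against 10.5 and 10.7 after DMSO. In the MAVS line it had 8.17 and 8.21 after MPS1i, against 11.1 and 11.2 after DMSO. In the STING line the values were 9.35 and 9.65 after MPS1i, against 10.7 in both libraries after DMSO, and in the DKO line 10.9 and 11.3, against 11.4 and 11.7. The ratio was lower after MPS1i than after DMSO in all 4 lines with no overlap, least in DKO cells. The DMSO libraries of the 4 lines ran from 10.5 in SCR to 11.7 in DKO. That range is wider than the change within DKO and about the size of the change within STING, though the treated STING libraries lay below it. Per 100 MTATP6P1 counts, MTCO3P12 had 41.3 to 47.4 counts over all 16 libraries, and there the MPS1i and DMSO libraries overlapped in every line.

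**Figure D4:**
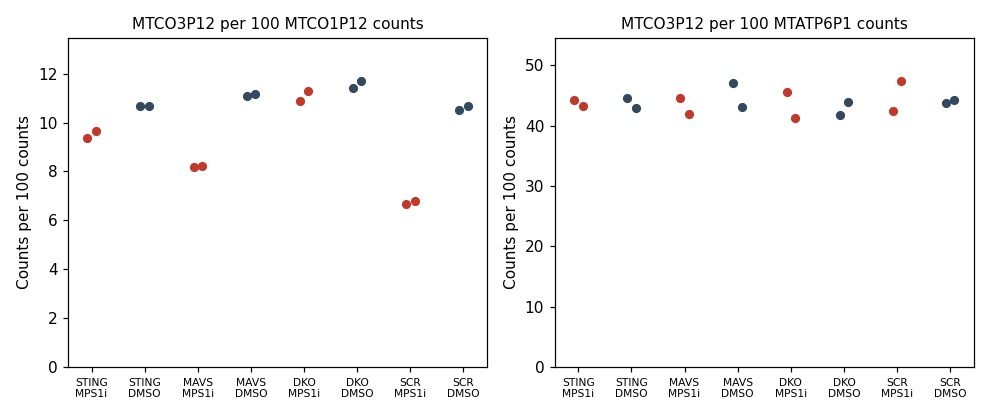
Counts of MTCO3P12 per 100 counts of MTCO1P12 (left) and per 100 counts of MTATP6P1 (right) in each library, with both axes from 0 and MPS1i left of DMSO within each line. On the left the treated SCR libraries are lowest, at 6.68 and 6.77, and the DKO pair of groups lies closest together; on the right the 16 libraries stay between 41.3 and 47.4.

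MTATP6P1 itself fell after MPS1i in the STING line by 0.34 ± 0.08 (adjusted p = 0.00669), in the MAVS line by 0.24 ± 0.08 (adjusted p = 0.0318) and in SCR by 0.29 ± 0.08 (adjusted p = 0.00926). It rose in the DKO line, by 0.26 ± 0.08 (adjusted p = 0.0431). Its difference in response, DKO minus SCR, was 0.55 ± 0.11 (adjusted p = 0.00249). MTATP8P1, which lies before it and shares 46 bases with it, copies the gene for ATP8, a small subunit of complex V. Its log2 changes after MPS1i were -0.76 ± 0.21 in STING (adjusted p = 0.0280), -0.42 ± 0.21 in MAVS (adjusted p = 0.168), 0.18 ± 0.20 in DKO (adjusted p = 0.640) and -0.35 ± 0.21 in SCR (adjusted p = 0.200). Of these, STING alone was called. The MTATP6P1 call within each line was lost when some single libraries were left out. Without 1 treated library it was lost at -0.29 in STING, -0.16 in MAVS, 0.18 in DKO and -0.27 in SCR. It was also lost without DMSO replicate 2, at -0.19 in MAVS, 0.19 in DKO and -0.25 in SCR. In DKO the same held without DMSO replicate 1 (0.33). With library totals in place of TMM, edgeR called it neither in MAVS (adjusted p = 0.0507) nor in DKO (adjusted p = 0.0541). The MTATP8P1 call in STING was lost without any 1 of the 4 STING libraries (adjusted p = 0.0549 to 0.140).

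For most mitochondrial genes, the counts of the copies were gathered almost wholly in 1 copy. MTCO1P12 held 99.7% of the counts of the 47 MT-CO1 copies, MTND2P28 99.9986% of the 34 MT-ND2 copies, MTCO2P12 99.9% of 30, MTND1P23 99.97% of 35 and MTCO3P12 99.9% of 36. MT-ND4 and MT-ND5, with no copy on the chromosome 1 stretch, had nearly all their copy counts on chromosome 5, where MTND4P12 (95.8% identical to MT-ND4) held 99.9% of MT-ND4 copy counts and MTND5P11 (93.0% identical to MT-ND5) 99.9% of MT-ND5 copy counts. MT-CYB and MT-ND3 were exceptions. MTCYBP18 held 85.2% of the counts of the 42 MT-CYB copies. The 23 copies of MT-ND3 held 8 counts in all 16 libraries together, 37.5% of them in the top copy. Of the 415 copies, 285 had 0 counts in every library, and 27 passed the filter on low counts, among them all 5 described here. Level and identity are plotted for these 27 as a description, since the 5 were chosen for their high counts.

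**Figure D5:**
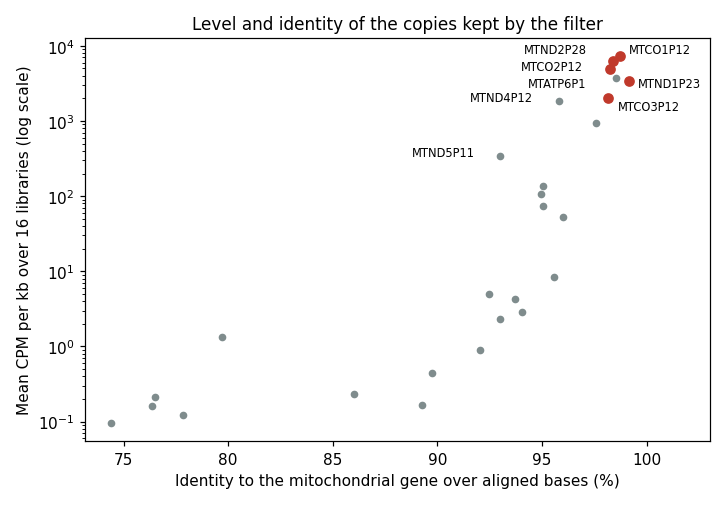
Mean level over 16 libraries (CPM per kb, log axis) against identity to the mitochondrial gene (% of aligned bases) for the 27 copies kept by the filter, 1 point a copy. The 5 described here are the red points at 98.2 to 99.1%, between 2045 and 7281 CPM per kb, and every copy under 90% lies at or below 1.35 CPM per kb.

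The chromosome 5 copies were not among the 5 chosen. MTND4P12, a copy of the gene for ND4 of complex I, had 2090 ± 62 CPM after MPS1i in the STING line, against 2515 ± 92 CPM after DMSO, and 2477 ± 54 CPM in treated SCR cells, against 2079 ± 269 CPM after DMSO (SD, n = 2 each). It thus fell in STING (-0.27 ± 0.08, adjusted p = 0.0187) and rose in SCR (0.25 ± 0.08, adjusted p = 0.0141), with a difference of -0.52 ± 0.11 (adjusted p = 0.00395). For MTND5P11, a copy of the gene for ND5 of complex I, the difference was -0.51 ± 0.13 (adjusted p = 0.0148). For MTND6P4, a copy of the gene for ND6 of complex I, it was -1.49 ± 0.40 (adjusted p = 0.0334). Within lines, MTND5P11 was not called in SCR (0.15 ± 0.09, adjusted p = 0.182), nor MTND6P4 in STING (-0.49 ± 0.29, adjusted p = 0.257). The difference of MTND4LP30, a copy of the gene for ND4L that is also on chromosome 5, was not called (-0.95 ± 0.36, adjusted p = 0.115). The MTND6P4 difference was not called when any 1 of the 8 libraries was left out, and that of MTND5P11 not without SCR MPS1i replicate 2 or STING MPS1i replicate 2, while that of MTND4P12 was called each time. The MTND4P12 changes within STING and within SCR were each lost without 3 of the 4 libraries, with adjusted p up to 0.120 and 0.190. In DKO cells MTND4P12 rose by 0.37 ± 0.08 (adjusted p = 0.00541), a call lost without DKO DMSO replicate 2 (0.29, adjusted p = 0.121) or DKO MPS1i replicate 2 (0.30, adjusted p = 0.0642).

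Nuclear genes that make and degrade mitochondrial mRNA were read from lists of known genes. In SCR cells PNPT1, the exoribonuclease that degrades mitochondrial RNA, was 6.03-fold higher after MPS1i, at 603 ± 21 CPM after MPS1i and 100 ± 6.2 CPM after DMSO (adjusted p = 3.22e-19), and its log2 change was 2.26 ± 0.07 in STING cells, 1.92 ± 0.06 in MAVS cells and 0.04 ± 0.07 in DKO cells, where it was not called (adjusted p = 0.742). LRPPRC, which stabilises mitochondrial mRNAs, fell by 0.58 ± 0.05 (adjusted p = 7.60e-10), TFAM, which packages mitochondrial DNA and starts its transcription, by 0.38 ± 0.07, and MTPAP, the mitochondrial poly(A) polymerase, by 0.29 ± 0.06, all in SCR. POLRMT, the mitochondrial RNA polymerase, rose by 0.27 ± 0.09 (adjusted p = 0.0131), a call lost without SCR DMSO replicate 1, SCR DMSO replicate 2 or SCR MPS1i replicate 2 (adjusted p = 0.0591 to 0.134). SLIRP, the partner of LRPPRC, had 0.21 ± 0.11, SUPV3L1, the helicase partner of PNPT1, -0.06 ± 0.06, and TEFM, an elongation factor, -0.16 ± 0.14, none of them called. The list counts for MPS1i against DMSO are read beside the shares of all tested genes called higher and lower, which were 15.5% and 13.9% in STING, 17.1% and 16.3% in MAVS, 6.53% and 8.22% in DKO, and 26.0% and 24.0% in SCR. Of the 23 genes of RNA processing, stability and decay, 3 rose and 1 fell in STING, 3 rose and 1 fell in MAVS, 1 rose and 0 fell in DKO, and 7 rose and 6 fell in SCR. Of the 19 genes of transcription and replication, 2 rose and 2 fell in STING, 2 rose and 6 fell in MAVS, 1 rose and 2 fell in DKO, and 5 rose and 6 fell in SCR. Both lists in SCR, and transcription and replication in STING and DKO, lay near the shares over all genes and are no result about those lists.

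In SCR, where 26.0% of all tested genes were called higher and 24.0% lower, nuclear genes of the respiratory complexes and the mitochondrial ribosome were called lower more often than higher. Of the 37 nuclear subunits of complex I, 2 rose and 3 fell in STING, 2 rose and 10 fell in MAVS, 1 rose and 1 fell in DKO, and 3 rose and 15 fell in SCR, with a median log2 change of -0.15 in SCR against 0.03 over all genes. Of the 28 subunits and assembly factors of complex IV, 1 rose and 0 fell in STING, 1 rose and 6 fell in MAVS, 2 rose and 0 fell in DKO, and 2 rose and 10 fell in SCR (median -0.13). Of the 28 nuclear subunits of complexes II, III and V (complex II has no subunit from the mitochondrial genome), 4 fell in STING, 11 in MAVS, 0 in DKO and 17 in SCR (median -0.18), and 1 rose, in MAVS. Of the 44 mitochondrial ribosomal proteins, 6 rose and 8 fell in STING, 3 rose and 13 fell in MAVS, 1 rose and 0 fell in DKO, and 5 rose and 21 fell in SCR (median -0.18). The SCR falls included NDUFS1 of complex I (-0.56 ± 0.05), COX11, an assembly factor of complex IV (-0.37 ± 0.07), ATP5PB of complex V (-0.60 ± 0.06) and MRPS16 of the ribosome (-0.63 ± 0.05), while MRPL17 of the ribosome rose by 1.25 ± 0.06, NDUFA9 of complex I by 0.52 ± 0.06 and SCO2, a copper chaperone of complex IV, by 1.30 ± 0.14. Among 10 regulators of mitochondrial biogenesis, 1 rose and 3 fell in STING, 3 rose and 3 fell in MAVS, 1 rose and 1 fell in DKO, and 3 rose and 4 fell in SCR. There the coactivator PPARGC1A fell by 0.69 ± 0.05 and its relative PPRC1 rose by 0.41 ± 0.06. Among 20 genes of permeability and mitophagy, 4 rose and 2 fell in STING, 1 rose and 6 fell in MAVS, 1 rose and 2 fell in DKO, and 4 rose and 6 fell in SCR, TOMM20, a receptor of the import channel, falling by 0.66 ± 0.05. Several of these counts lay near the shares over all genes and are no result about the lists. Among them were the SCR, STING and DKO counts of this last list and the STING counts of the ribosomal proteins.

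The mean profile of the 5 copies was set against 13866 genes that averaged 1 CPM or more, with all other mitochondrial copies left out. Among the copies left out, MTND4P12 differed from the single copies by 0.07 to 0.23. Its distance from their mean profile was not measured. Nearest among the 13866 genes were RGS9, a regulator of G protein signalling (0.134 root mean square log2 difference over 16 libraries), NCAM2, a cell adhesion molecule (0.136), UBE2E2, a ubiquitin conjugating enzyme (0.138), TANGO2 (0.144), CUTC (0.148) and NBPF3 (0.149). The median over all these genes was 0.315, and the mean profile of the copies had an SD of 0.256. RGS9 averaged 9.65 CPM after MPS1i and 10.6 CPM after DMSO in STING, 10.6 and 10.8 CPM in MAVS, 14.0 and 14.6 CPM in DKO, and 11.3 and 9.31 CPM in SCR.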

How the data were processed

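The authors deposited a table of whole-number read counts per gene for 16 libraries. Per the submitters' processing notes, Trim Galore, cutadapt, Trimmomatic, STAR and featureCounts were used with GRCh38 (hg38). Versions, strand setting and the handling of reads with several matches are not given in the sources used here. Per the labels' protocols, libraries were stranded and poly(A) selected.

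Genes were kept with edgeR's filterByExpr (minimum count 10, minimum total 15), scaled by TMM and tested by edgeR 4.0.16 (R 4.3.3) with its robust quasi-likelihood test over 8 groups of 2 libraries (8 residual degrees of freedom), in 13 contrasts. P-values were adjusted by Benjamini-Hochberg over all 17950 genes, with calls made below an adjusted p of 0.05. The scripts were tested on simulated data. Copies were aligned locally to their mitochondrial genes (GENCODE release 29 transcripts, Biopython 1.88), and plotted with matplotlib 3.10.9. The total count per library, 19893784 to 49769938, sets the counting precision. Alternatives included DESeq2 1.42.0, other scaling, filters and designs, and leaving out each library.

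The 5 copies and all gene lists were chosen with earlier results of these data known. Also named were the 8 other copies of highest level and any on the stretch, and 8 regulators of mitochondrial RNA. Further named were the genes of smallest adjusted p of each list (3 in SCR, 2 in DKO) and the 6 of nearest profile outside the mitochondrial copies. Of these the text gives examples.

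Deviations of same-numbered libraries from their group means correlated by -0.164 to 0.208 over 28 pairs of groups (median 0.018), so replicate numbers were not taken to pair libraries.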

Additional observations from a re-analysis of the deposited data

Results flagged for a closer look

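Several copies differed between lines in their response to MPS1i by the test of the difference itself, edgeR's interaction term with adjusted p under 0.05. For STING minus SCR the log2 differences were -0.98 for MTND1P23, -0.52 for MTND2P28, -0.57 for MTCO1P12, -0.44 for MTCO2P12, -0.52 for MTND4P12, -0.51 for MTND5P11 and -1.49 for MTND6P4. For MAVS minus SCR the difference was -0.26 for MTCO1P12. For DKO minus SCR it was 0.54 for MTCO3P12 and 0.55 for MTATP6P1. All 3 sets share the SCR libraries, and the cause of these differences was not tested.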

How the results depend on the processing

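Of the values of the 5 copies in 13 contrasts, 562 kept direction and side of the threshold under the alternatives other than leaving out a library, 9 lost the call, 7 gained one and 7 turned sign; with a library left out, 261 kept both, 38 lost the call, 2 gained one and 19 turned sign. The cause was not tested. The number of the 5 called, with a library left out, ran from 2 to 4 in STING, 1 to 3 in MAVS, 2 to 3 in DKO and 2 to 5 in SCR for MPS1i against DMSO, from 2 to 5 for DKO against SCR after DMSO, and from 0 to 2 for MAVS minus SCR. With the compared groups alone it was 3 in SCR.

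The sign turned for values near 0, none of them called. MTND2P28 in STING against SCR after DMSO was 0.0317 with library totals, 6e-04 with TMM factors from other genes and 2e-04 with the compared groups alone. MTCO1P12 in MAVS against SCR after MPS1i was 0.0516 with library totals, 0.0074 with no filter and 0.0045 with the compared groups alone. With library totals MTATP8P1 in STING against SCR after MPS1i was 0.0052, and MTND2P28 for MAVS minus SCR was 0.0047.

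With a library left out, log2 changes after MPS1i ran from -0.0064 to 0.104 for MTND4P12 and -0.0969 to 0.1571 for MTND5P11 in MAVS, from -0.0258 to 0.7245 for MTND6P4 and -0.0071 to 0.0797 for PNPT1 in DKO, and from -0.356 to 9e-04 for TEFM in SCR. Against SCR after DMSO they ran from -0.1426 to 0.1093 for MTND2P28 and -0.0624 to 0.1615 for MTCO2P12 in STING, and from -0.0224 to 0.2297 for MTND2P28 and -0.0094 to 0.5757 for MTATP8P1 in MAVS. Against SCR after MPS1i they ran from -0.2438 to 0.1899 for MTATP8P1 in STING. In MAVS they ran from -0.0504 to 0.2271 for MTND1P23, -0.0655 to 0.0585 for MTCO1P12, -0.0081 to 0.4286 for MTATP8P1 and -0.3757 to 0.3444 for MTND6P4, and in DKO from -0.099 to 0.1481 for MTND6P4. For STING minus SCR, MTATP6P1 ran from -0.1101 to 0.0183. For MAVS minus SCR the ranges were -0.1582 to 0.0939 for MTND2P28, -0.1106 to 0.0192 for MTCO3P12, -0.3839 to 0.2013 for MTATP8P1, -0.0697 to 0.1508 for MTATP6P1, -0.2373 to 0.0176 for MTND5P11 and -0.6628 to 0.0572 for MTND6P4. For DKO minus SCR they were -0.0566 to 0.1954 for MTND2P28, -0.0909 to 0.0171 for MTCO1P12, -0.036 to 0.188 for MTCO2P12 and -0.0047 to 0.2548 for MTND4P12.

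With the replicate number as a block, 1 call of the 5 copies changed, MTCO2P12 in STING after MPS1i (-0.18, adjusted p = 0.0503). That call was also lost with library totals (adjusted p = 0.0525) and with TMM factors from other genes (adjusted p = 0.0513). MTND2P28 in MAVS after MPS1i was not called by DESeq2 (0.20, adjusted p = 0.0739), and MTND1P23 in DKO against SCR after MPS1i was called by DESeq2 (0.33, adjusted p = 0.0268).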
